A study of Mus musculus with 8 samples.

Results

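The 10 genes of the neuronal cytoskeleton and of axon growth, *Tubb3*, *Stmn2*, *Stmn3*, *Map2*, *Mapt*, *Dcx*, *Nefl*, *Nefm*, *Ina* and *Gap43*, were followed here in E12.5 mouse brain after *Rest*, the gene of a transcriptional repressor, had been targeted in neural progenitors. The genes were chosen by name, and every probe set annotated to them was taken, which gave 24 of the 45037 probe sets tested and 10 of the 18193 genes. Expression was measured on Affymetrix mouse arrays hybridised with biotin-labelled copies of total RNA, 1 array per replicate. The first genotype was *Cre+, Rest GTi/GTi* (4 arrays, called mutants), in which both *Rest* alleles carry an inverted gene trap and a *Nestin Cre* transgene turns the trap back in neural progenitors, so that the coding exons of *Rest* are no longer transcribed there. The second was *Rest GTi/GTi* (4 arrays, called controls), littermates with the same 2 trap alleles and no Cre. All embryos were of the C57/BL6 strain, and the tissue was freshly dissected brain. There was no group with Cre alone, so that effects of Cre and of REST loss cannot be told apart. Brain cells that neither used the *Nestin* promoter nor descend from cells that did keep intact *Rest* in the mutants. The labels call the arrays biological replicates without saying whether one holds RNA of 1 embryo or of several. In brain RNA, fewer neurons and less RNA per neuron cannot be told apart.

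A newborn neuron stops dividing, grows an axon and fills it with microtubules and filaments. Tubb3 is the beta-tubulin isotype of neurons, the stathmins Stmn2 and Stmn3 bind tubulin and favour microtubule disassembly, and Map2, tau (*Mapt*) and doublecortin (*Dcx*) bind and stabilise microtubules in dendrites, axons and migrating neurons. Nefl, Nefm and alpha-internexin (*Ina*) build the intermediate filaments of axons, and Gap43 is a growth cone membrane protein. REST represses many neuronal genes outside neurons by binding a DNA element called RE1, whose left and right parts contain the letters CAGCACC and GGACAG. The comparison asked whether these markers of differentiated neurons were expressed at another level once REST was removed from progenitors.

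RefSeq promoter windows (GRCm38.p6, 250 bases before to 50 after the start of transcription) were found for 5 of the 10 genes, with 6 windows in all. The windows that hold either of these RE1 strings on either strand are shown, with the matching letters in capitals, because they show which members carry these letters beside the start. They lie on the plus strand at chr8:123411303-123411602 (*Tubb3*), chr19:47014431-47014730 (*Ina*) and chr1:66175079-66175378 (*Map2*).
Tubb3: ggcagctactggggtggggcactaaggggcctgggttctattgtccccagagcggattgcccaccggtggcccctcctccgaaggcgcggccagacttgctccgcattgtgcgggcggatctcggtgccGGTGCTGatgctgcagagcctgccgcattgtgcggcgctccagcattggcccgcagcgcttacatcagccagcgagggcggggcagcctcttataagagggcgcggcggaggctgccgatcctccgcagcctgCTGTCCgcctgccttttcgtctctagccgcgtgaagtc
Ina: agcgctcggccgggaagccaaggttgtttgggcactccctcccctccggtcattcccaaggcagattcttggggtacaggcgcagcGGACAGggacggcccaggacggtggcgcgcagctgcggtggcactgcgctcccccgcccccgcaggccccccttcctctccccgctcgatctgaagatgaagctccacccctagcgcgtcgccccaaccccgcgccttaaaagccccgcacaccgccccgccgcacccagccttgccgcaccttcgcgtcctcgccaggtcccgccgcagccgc
Map2: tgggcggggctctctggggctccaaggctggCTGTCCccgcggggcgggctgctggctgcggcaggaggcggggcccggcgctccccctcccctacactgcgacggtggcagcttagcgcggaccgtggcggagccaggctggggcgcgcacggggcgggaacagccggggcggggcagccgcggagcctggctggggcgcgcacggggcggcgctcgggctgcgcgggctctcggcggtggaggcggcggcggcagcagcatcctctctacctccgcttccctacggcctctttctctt
The *Tubb3* window held the left string and the right string, both read on the minus strand and apart from each other. Read on that strand the right string comes before the left, the reverse of their order in RE1. The *Ina* window held the right string on the plus strand and the *Map2* window the right string on the minus strand. In the windows of *Stmn3* and *Dcx* neither was found. Of 32851 RefSeq promoter windows, 7.14% held the left string, 22.2% the right string and 1.73% both, and a match to strings this short is a description and not a binding site. The other 5 members, *Stmn2*, *Mapt*, *Nefl*, *Nefm* and *Gap43*, have no entry.

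Several arrays stood apart. In mutant replicates 1 and 2, 11 mesenchyme markers such as *Col1a2* and *Col3a1* summed to 10117 and 14488 in intensity, against 832 and 656 in replicates 3 and 4 and 580 to 1478 in controls. A set of 12 *Hox* genes of hindbrain and spinal cord summed to 84.7, 549, 2054 and 1126 in mutant replicates 1 to 4 and to 675, 134, 127 and 219 in control replicates 1 to 4. Of 10 microglia markers 9 were called higher in mutants, and *Csf1r* was at 591 to 629 there, against 194 to 249 in controls, and *C1qb* at 238 to 296.5 there, against 65.6 to 82.8. The Y-linked *Eif2s3y* was at or near 0 in control replicates 2 and 3 alone, so that 2 of the 4 controls and none of the other arrays were of female type. *Rest* itself was 163, 217, 84.4 and 134 in mutant replicates 1 to 4, against 170.1, 272, 211 and 198 in control replicates 1 to 4, with genotypes that overlapped (log2 fold change -0.51, exact permutation p = 0.143), and its other 3 probe sets gave -0.63, -0.14 and -0.02. Progenitor and neuronal genes were bright on every array: 9 apical progenitor markers, of which *Fabp7* and *Sox2* were the brightest, summed to 21083 to 24117 in mutants and 22824 to 24002 in controls, and 10 pan-neuronal genes outside the cytoskeleton to 16716 to 21640, against 18628 to 20915. The sum of 9 forebrain markers was 5893 to 7278 in mutants and 7331 to 7854 in controls, without overlap. Averaged over the 9 genes as log2 differences from the control mean, the genotypes did overlap, at -0.26 to 0.07 in mutants and -0.05 to 0.05 in controls. Within that list 2 genes had genotypes that did not overlap, beside 4.64% of all genes. These were *Dlx1*, at a mean of 1126 in mutants and 1821 in controls, and *Dlx2*, at 939.9 in mutants and 1401 in controls (limma adjusted p = 0.166 and 0.0944). *Lhx2* gave a log2 fold change of -0.01 and *Emx1* one of 0.55.

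None of the 10 genes passed the test for a difference between genotypes. Intensities are quantile-normalized values in arbitrary units of brightness, and tests were made on log2 of the intensity plus 16 with limma, adjusted by Benjamini-Hochberg over all probe sets and called at 0.05. By its brightest probe set, 0 of 10 members was called higher and 0 lower in mutants, beside 0.225% of all genes called in either direction (41 of 18193). Of the 24 member probe sets 0 was called, beside 0.14% of all probe sets. By brightest probe set, 0 of 10 members had an unadjusted p under 0.05, where 6.97% of all genes did. None had genotypes that did not overlap, where 4.64% of all genes had. With 10 genes, 0 is near these shares. Of the 24 probe sets, too, 0 had an unadjusted p under 0.05 and 0 had genotypes that did not overlap. Log2 fold changes were above 0 for 11 probe sets and below 0 for 13, with limma adjusted p-values from 0.733 to 0.998. The median over the 10 genes was 0.01 on the log2 scale, and over all genes it was -0.0014. For 8 of the genes the 95% confidence interval of the fold lay between 0.80 and 1.25, and for *Nefl* and *Nefm* it reached 1.66 and 1.73. A p that misses the threshold does not show that the genotypes were equal, and these intervals give the sizes of change that the arrays leave possible.

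**Figure D1:**
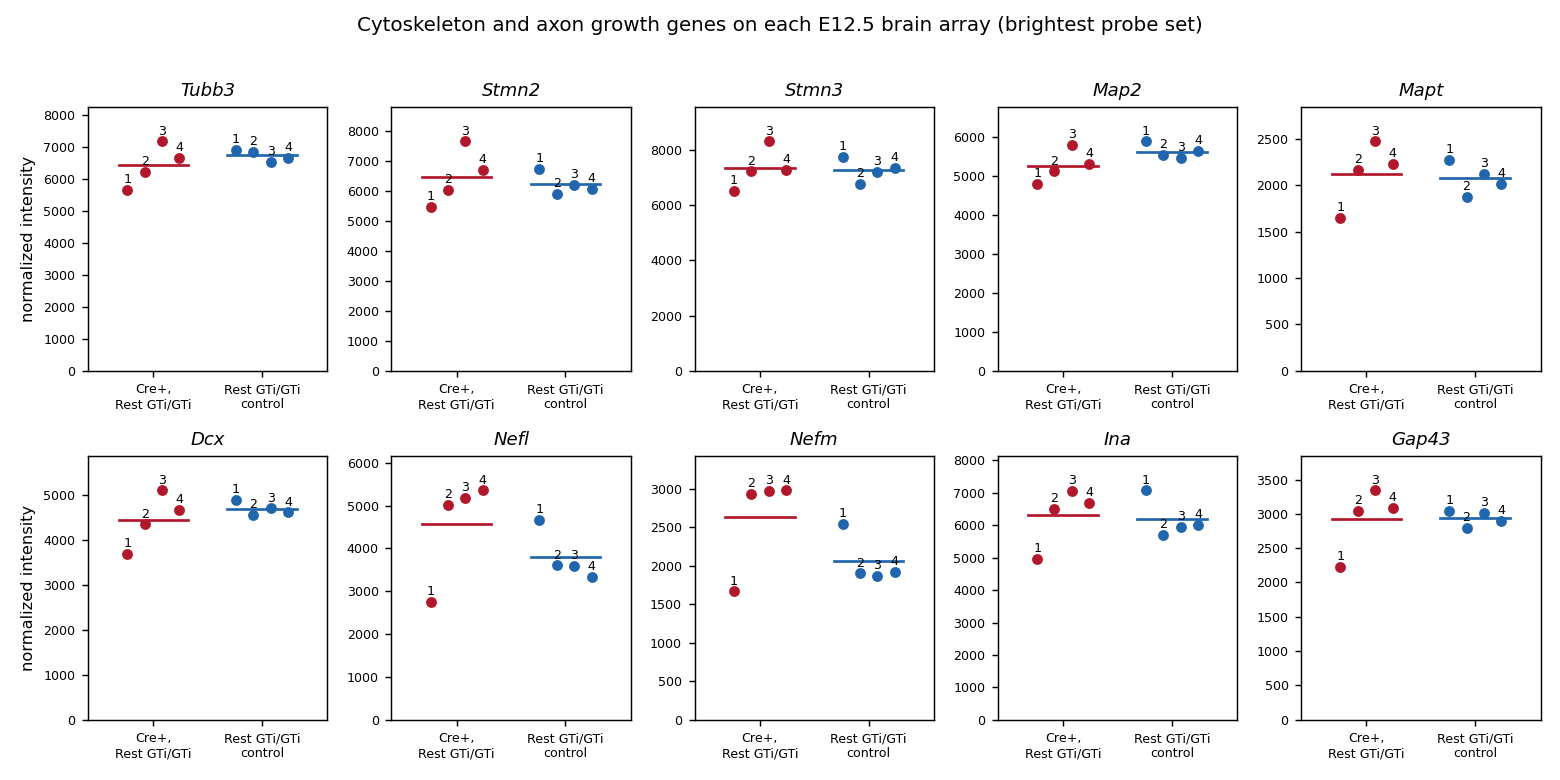
Normalized intensity (y axis, arbitrary units, starting at 0) of the brightest probe set of each of the 10 genes, with one numbered point per replicate, *Cre+, Rest GTi/GTi* on the left and *Rest GTi/GTi* control on the right, and a line at each mean of 4 arrays. The genotypes overlap in every panel, and mutant replicate 1 is the lowest of the 8 quantile-normalized arrays in each.

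*Tubb3* (chromosome 8, 123411553 to 123422015, GRCm38.p6) is measured by a single probe set. Its intensity was 5673, 6224, 7186 and 6662 in mutant replicates 1 to 4, against 6929.5, 6863, 6549.9 and 6676 in control replicates 1 to 4. The control arrays lay close together, and the mutant arrays spread to both sides of them. The means were 6436 ± 643 in mutants and 6754 ± 174 in controls (SD, n = 4 each), a log2 fold change of -0.07 with a 95% confidence interval of -0.27 to 0.12. Such intervals stand in parentheses after each log2 fold change of the genes that follow.

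The 2 stathmin genes had the same arrays at their ends. *Stmn2* (chromosome 3, 8509527 to 8561604) was 5469, 6024, 7652 and 6701 in mutant replicates 1 to 4, against 6736, 5890.1, 6206 and 6074 in control replicates 1 to 4. Mutant replicate 3 was the highest array and replicate 1 the lowest, with all controls between them, and the log2 fold change was 0.04 (-0.21 to 0.29). Its second probe set gave -0.01. *Stmn3* (chromosome 2, 181306459 to 181314500) was 6528, 7227, 8313 and 7281 in mutant replicates 1 to 4, against 7747, 6777, 7207 and 7349 in control replicates 1 to 4, again with replicates 1 and 3 of the mutants at the ends and a log2 fold change of 0.01 (-0.19 to 0.21). That brightest *Stmn3* probe set is of the kind Affymetrix marks as able to bind other transcripts. The specific *Stmn3* probe set gave -0.08 (-0.30 to 0.15), with means of 4003 ± 511 in mutants and 4198 ± 151 in controls, so that the sign for *Stmn3* depends on the probe set.

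Among the microtubule-associated proteins, *Map2* was the only gene with 3 or more probe sets that all lay on one side of 0. The brightest (*Map2* lies on chromosome 1, 66175202 to 66442583) was 4779.5, 5107, 5792 and 5310.1 in mutant replicates 1 to 4, against 5877, 5519, 5443 and 5635 in control replicates 1 to 4. Of the 4 mutant arrays 3 were below every control, the genotypes overlapped through replicate 3, and the log2 fold change was -0.10 (-0.28 to 0.07). The second was 469.8, 489.6, 616 and 471 in mutants 1 to 4 and 684, 646, 499.5 and 718 in controls 1 to 4, and all 4 mutant values were below the control mean. It had a log2 fold change of -0.30 (-0.61 to 0.00), with an exact permutation p of 0.0571, the lowest among the 24 probe sets, and a limma adjusted p of 0.733. The remaining 2 probe sets gave -0.05 and -0.22, at mean intensities of 233 and 67.9 in mutants and 239.6 and 81.8 in controls. None of the 4 was called.

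*Mapt* (chromosome 11, 104229409 to 104332090), the gene of tau, was 1646, 2163, 2475 and 2229 in mutant replicates 1 to 4, against 2278, 1879, 2129 and 2016 in control replicates 1 to 4. Here too replicate 1 was lowest and replicate 3 highest, both of the mutants, and the log2 fold change was 0.02 (-0.27 to 0.32). The other 3 probe sets gave 0.03, -0.04 and -0.0042. On the second of them mutants ranged from 1157 to 2132 and the controls from 1558 to 1701, a wide spread around a narrow one.

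*Dcx* (chromosome X, 143855842 to 143933396) was 3678, 4339, 5094 and 4667 in mutant replicates 1 to 4, against 4891, 4559, 4696 and 4605 in control replicates 1 to 4. The 4 controls fell within 332.2 intensity units of each other, the mutant arrays spanned 1416.2 units, and the log2 fold change was -0.09 (-0.32 to 0.15). Its 3 dimmer probe sets disagreed in sign. One gave -0.20, with 159, 173, 203 and 196 in mutants 1 to 4 and 229.6, 189, 211 and 215 in controls 1 to 4, the others 0.11 and 0.18, and the last of these was dim, at 32 to 55.8 in mutants and 29.5 to 37.1 in controls.

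The neurofilament genes *Nefl* and *Nefm* had the largest positive differences among the 10 and the largest spread within genotype. They are neighbours on chromosome 14 (*Nefl* 68083863 to 68089095, *Nefm* 68119545 to 68125004), 30449 bases apart. *Nefl* was 2752, 5023, 5179 and 5352 in mutant replicates 1 to 4, against 4662, 3603, 3599 and 3332 in control replicates 1 to 4. Mutant replicates 2, 3 and 4 lay above every control, and replicate 1 lay below every control. The means were 4576 ± 1224 in mutants and 3799 ± 589 in controls (SD, n = 4 each), with a log2 fold change of 0.23 (-0.27 to 0.73), a fold of 1.17 and an exact permutation p of 0.4. The second *Nefl* probe set had the same 4 arrays at the top, though control 1 there exceeded mutant 2, with 1527, 2869, 3512 and 3369.8 in mutants 1 to 4 and 2993, 2002, 2107 and 2035 in controls 1 to 4, and gave 0.25 (-0.35 to 0.86).

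*Nefm* was 1665, 2935, 2972 and 2976 in mutant replicates 1 to 4, against 2544, 1898, 1866 and 1913 in control replicates 1 to 4. As for *Nefl*, replicates 2, 3 and 4 of the mutants were above all controls, control replicate 1 came next, and mutant replicate 1 was last. The means were 2637 ± 648 in mutants and 2055 ± 326 in controls (SD, n = 4 each), with a log2 fold change of 0.33 (-0.13 to 0.79), a fold of 1.26 and an exact permutation p of 0.143. Without mutant replicate 1, the log2 fold changes were 0.46 for *Nefl* and 0.54 for *Nefm*, and neither was called (limma adjusted p = 0.506 and 0.424). Without mutant replicate 2, 3 or 4 they were 0.17, 0.16 and 0.14 for *Nefl*, and 0.26 each time for *Nefm*. With the 2 male controls as the only controls they were 0.17 and 0.22. With mutant replicates 3 and 4 alone they were 0.48 and 0.54 (limma adjusted p = 0.646 and 0.581). That choice leaves out the 2 arrays rich in mesenchyme markers and keeps the 2 with the highest *Hox* sums.

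*Ina* (chromosome 19, 47014681 to 47025327), whose protein joins the same filaments, was 4965, 6505, 7066 and 6684 in mutant replicates 1 to 4, against 7074, 5700.3, 5940.2 and 6019 in control replicates 1 to 4. Control replicate 1 and mutant replicate 3 shared the top and mutant replicate 1 was lowest, with a log2 fold change of 0.02 (-0.26 to 0.30). Its other probe sets gave 0.06 and -0.06. *Gap43* (chromosome 16, 42248552 to 42340651), which has 1 probe set, was 2232, 3039, 3340.2 and 3088 in mutant replicates 1 to 4, against 3046, 2796, 3014 and 2891 in control replicates 1 to 4. The controls differed little, mutant replicate 1 was far below them, and the log2 fold change was -0.02 (-0.30 to 0.26). Without that array it was 0.10, so that the sign for *Gap43* rested on 1 array.

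**Figure D2:**
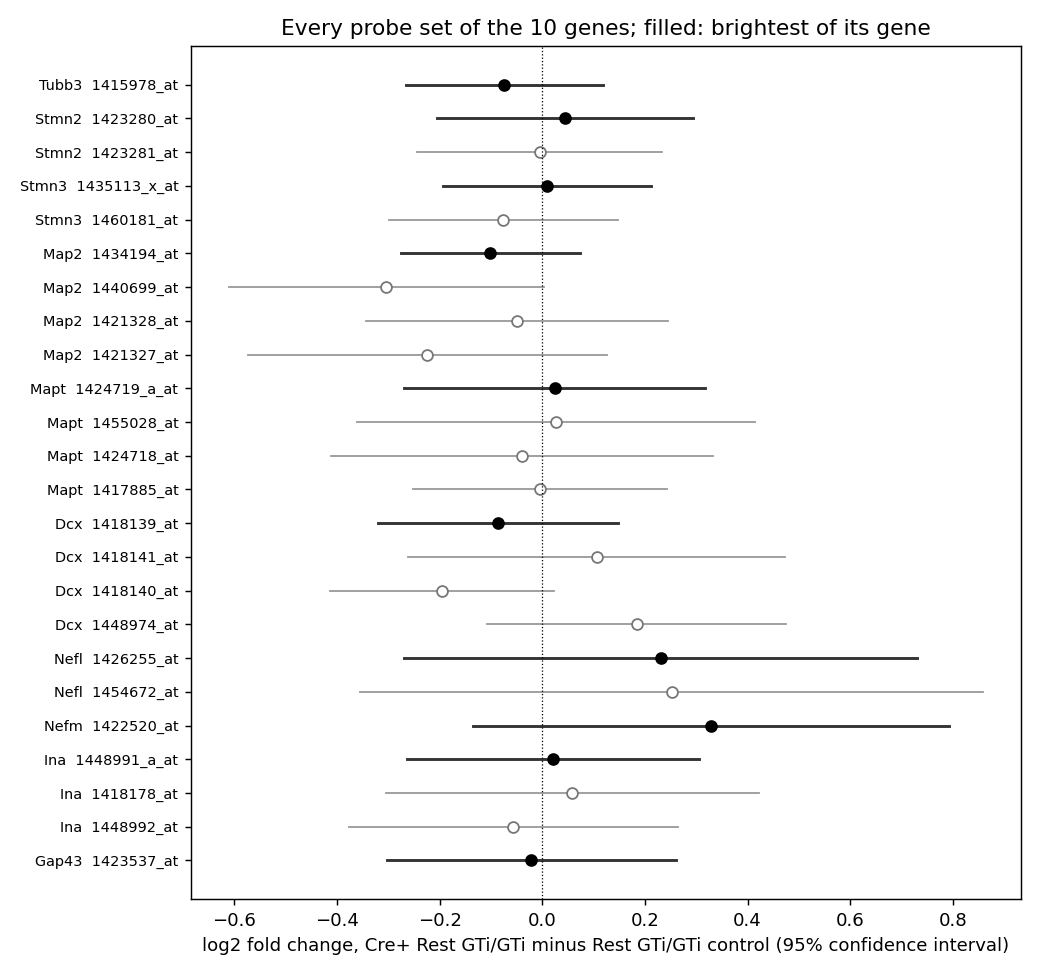
Log2 fold change (x axis, *Cre+, Rest GTi/GTi* minus control) of the 24 probe sets of the 10 genes, with 95% confidence intervals from limma, n = 4 arrays each; filled points mark the brightest probe set of a gene. Every interval includes 0, the *Map2* points all lie below it, and the *Nefl* and *Nefm* points lie above it with wide intervals.

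After quantile normalization the 10 genes all had their lowest value on one array. Mutant replicate 1 was the lowest of the 8 arrays for 10 of 10 genes and for 21 of 24 probe sets, while over all genes that array was lowest for 15.8%, and for 19.8% of the 1052 genes at least as bright as the dimmest member. Mutant replicate 3 was the highest for 6 of 10, against 13.3% of all genes. It was highest for 2 with a common median, against 12.2% of all genes, and for 10 without scaling, against 36.3% of all genes and 49.2% of those at least as bright. This pattern was looked for after the values had been seen. The count stayed at 10 of 10 for replicate 1 with a common median or cyclic loess in place of quantile normalization. Of the genes at least as bright, 17.1% and 19.5% were lowest on that array with these scalings. On the values as deposited without scaling it was 0 of 10, as it was 0 of the 1052 genes at least as bright, so this count tells nothing particular to the members. The median of replicate 1 was 67.6 there, in a range of 40.9 to 68 over the 8 arrays. Averaged over the 10 genes, the log2 difference from the control mean was -0.29, 0.07, 0.24 and 0.13 in mutant replicates 1 to 4 and 0.14, -0.07, -0.03 and -0.04 in control replicates 1 to 4.

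The SD across arrays was larger in mutants than in controls for 10 of 10 genes, against 58% of all genes and 57.5% of those at least as bright as the dimmest member. Related lists shared this, with 11 of 11 axonal transport motors, 12 of 12 adhesion and guidance receptors and 9 of 10 pan-neuronal genes. It held for 8 of 10 other microtubule regulators, 10 of 14 growth cone and CRMP genes, 5 of 8 other tubulins and 3 of 4 other intermediate filaments. For *Dcx* the log2 SD was 0.20 in mutants and 0.04 in controls, for *Gap43* 0.25 and 0.06, and for *Tubb3* 0.14 and 0.04. Under each of the 3 other scalings the count was 10 of 10 as well, where the share among genes at least as bright was 63.5% with cyclic loess, 85.5% with a common median and 95.7% without scaling. Within genotype the pooled log2 SD was 0.36 for *Nefl* and 0.33 for *Nefm*, against 0.09 for *Map2* and a median of 0.07 over genes at least as bright as the dimmest member. From the lowest to the highest of the 8 arrays *Nefl* differed 1.94-fold, *Nefm* 1.78-fold and *Map2* 1.23-fold.

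**Figure D3:**
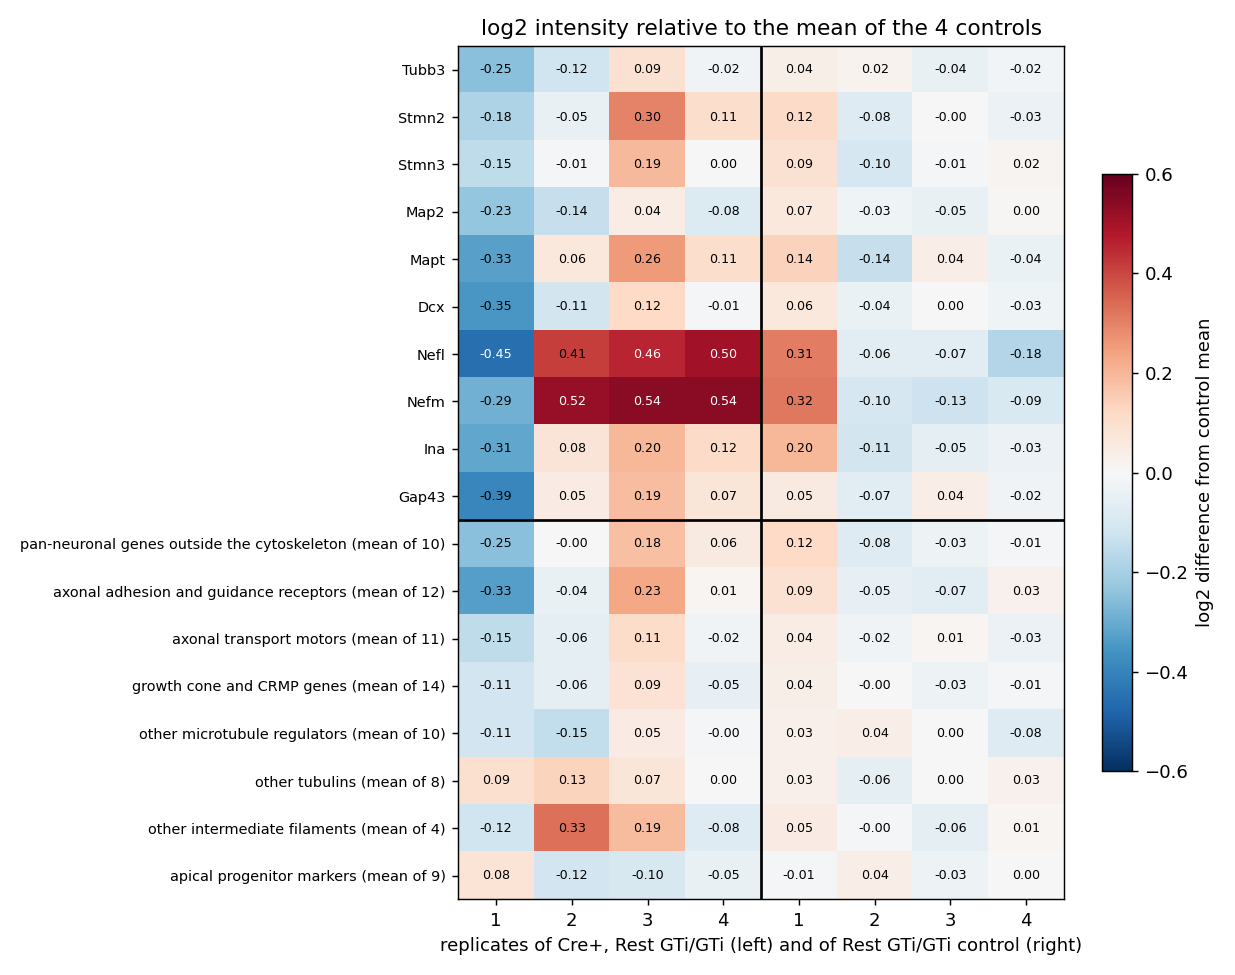
Log2 intensity of each of the 10 genes, and the mean over 8 related gene lists, relative to the mean of the 4 controls on each array (colour and printed value), with mutant replicates 1 to 4 on the left and control replicates 1 to 4 on the right. Mutant replicate 1 is below the control mean for all 10 genes on these quantile-normalized values, and *Nefl* and *Nefm* lie above it on mutant replicates 2 to 4 and on control replicate 1.

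Other neuronal genes had a similar array pattern. The 10 pan-neuronal genes outside the cytoskeleton averaged -0.25, -0.00, 0.18 and 0.06 in mutant replicates 1 to 4 and 0.12, -0.08, -0.03 and -0.01 in control replicates 1 to 4, and 8 of the 10 were lowest on mutant replicate 1. The 12 axonal adhesion and guidance receptors averaged -0.33, -0.04, 0.23 and 0.01, against 0.09, -0.05, -0.07 and 0.03, and 10 of the 12 were lowest there. The mean of the 9 apical progenitor markers did not follow them, with 0.08, -0.12, -0.10 and -0.05 in mutants and -0.01, 0.04, -0.03 and 0.00 in controls. Single markers differed in this. *Fabp7* was lowest of all arrays on mutant replicate 1 (7200) and highest on mutant replicate 3 (8886). *Sox2* was at 4498 on mutant replicate 1 and lowest on replicate 2 (3629). The mesenchyme sums given above were high on mutant replicate 1 and highest on replicate 2. On replicate 2 the 10 members averaged 0.07, with *Nefl* and *Nefm* at 0.47 and the other 8 at -0.03. The part of mesenchyme RNA in the low values of replicate 1 was not tested.

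*Nefl* and *Nefm* departed from the other 8 members on some arrays. Their mean difference from the control mean was -0.37, 0.47, 0.50 and 0.52 in mutant replicates 1 to 4 and 0.31, -0.08, -0.10 and -0.13 in control replicates 1 to 4, while the other 8 members averaged -0.275, -0.03, 0.17 and 0.04, against 0.10, -0.07, -0.01 and -0.02. The same 4 arrays, mutant replicates 2, 3 and 4 and control replicate 1, were the top 4 for both genes under all 4 scalings. The set was picked after the *Nefl* and *Nefm* values had been seen, so their match to it is no test. It was the top 4 for 5 of the 10 members (*Mapt*, *Nefl*, *Nefm*, *Ina* and *Gap43*) after quantile normalization, and for 2.15% of all genes. The same held for 4 of the 10 pan-neuronal genes outside the cytoskeleton, and on each other cytoskeleton or axon list for 0 or 1 gene. With a common median it was the top 4 for 2 members, with cyclic loess for 6 and without scaling for 2. The shares of all genes there were 1.37%, 2.35% and 0.566%. The 2 members were *Nefl* and *Nefm* both times. These 4 arrays were also those with the highest *Hox* sums. *Hoxb3*, for example, was 1.8, 179, 746 and 434 in mutants 1 to 4 and 173, 6.9, 9.3 and 12.8 in controls 1 to 4. *Hoxb2* was 2.9, 126, 256 and 204 in mutants 1 to 4 and 206, 10.1, 4.9 and 43.6 in controls 1 to 4. On mutant replicate 3 *Hoxb3* was 4.32 times its level on control replicate 1, and *Nefm* 1.17 times. Of markers of peripheral ganglia, *Sncg*, the gene of gamma-synuclein, was high on the same arrays, with 259, 645, 529 and 516 in mutants 1 to 4 and 375, 292, 306 and 282 in controls 1 to 4, whereas *Isl1* was 997, 1411, 1225 and 1322 in mutants 1 to 4 and 1594, 1529.7, 1515 and 1352 in controls 1 to 4. *Pou4f1* gave a log2 fold change of -0.01. The list of 8 ganglion markers had a median log2 fold change of 0.0035 with 0 called. The part of hindbrain, spinal cord or ganglion tissue in the *Nefl* and *Nefm* values was not tested.

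**Figure D4:**
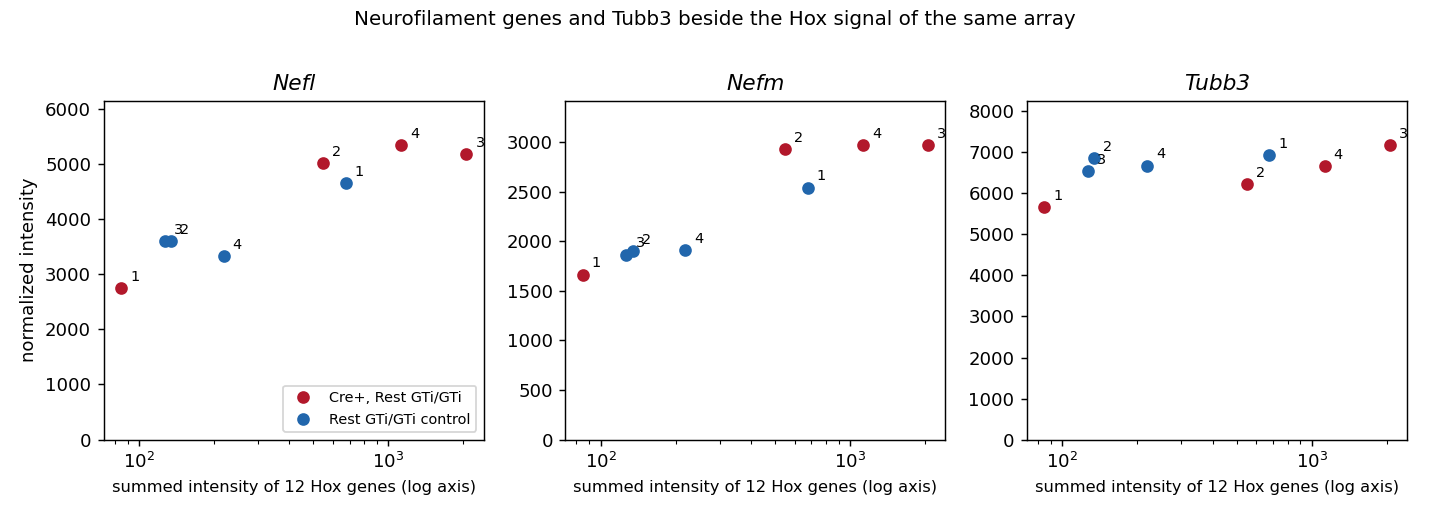
Normalized intensity (y axis, from 0) of *Nefl*, *Nefm* and *Tubb3* on each array beside the summed intensity of 12 *Hox* genes on the same array (x axis, log scale), with numbered replicates of *Cre+, Rest GTi/GTi* in red and of *Rest GTi/GTi* control in blue. For *Nefl* and *Nefm* the 4 arrays with *Hox* sums of 549 or more lie above the other 4, and for *Tubb3* they are mixed with them.

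Of the wider cytoskeleton and axon machinery, 69 further genes on 7 lists were measured and 0 was called in either direction. Of the tubulins besides *Tubb3*, 8 were measured, with a median log2 fold change of 0.01. *Tubb6*, a beta-tubulin not restricted to neurons, was 253, 275, 164 and 178 in mutant replicates 1 to 4, against 141, 166, 172 and 169 in control replicates 1 to 4, a log2 fold change of 0.37 (-0.00 to 0.74). It was highest on the 2 arrays rich in mesenchyme markers, and so was *Tuba4a*, an alpha-tubulin, with 339, 249, 183 and 164 in mutants 1 to 4 and 182, 189, 192 and 193 in controls 1 to 4. *Tubb4b* gave 0.02. The 10 other microtubule regulators had a median of -0.01, of which *Mapre3*, a protein of microtubule plus ends, gave -0.29 (-0.59 to 0.01), with 169.6, 149.5, 236 and 185 in mutants 1 to 4 and 202, 236, 243 and 230.2 in controls 1 to 4. *Camsap2*, which caps minus ends, gave -0.13 and the doublecortin-like kinase *Dclk2* -0.15.

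The 4 other intermediate filament genes had a median of 0.02. *Prph*, the gene of peripherin, a filament protein of peripheral neurons, was 48.2, 274, 101 and 86.4 in mutants 1 to 4 and 88.3, 63.8, 73 and 84.9 in controls 1 to 4, so that mutant replicate 2 lay far above the other 7 arrays, with a log2 fold change of 0.39 (-0.51 to 1.29). *Nefh*, the heavy neurofilament, was dim at 36.9 to 87.2 in mutants and 55.5 to 73.3 in controls and gave -0.11, and *Vim*, the filament of progenitors, gave 0.03. On mutant replicate 4, where *Nefl* and *Nefm* were high, *Nefh* was at its lowest.

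Growth cone and CRMP genes (14 measured) had a median of -0.03, with 11 below 0 and 3 above. *Ablim1*, an actin-binding protein, was 422, 406, 516 and 380.4 in mutant replicates 1 to 4, against 382, 325, 334 and 378 in control replicates 1 to 4, and was the single gene of the 7 lists with an unadjusted p under 0.05 (0.26, 0.02 to 0.51, limma adjusted p = 0.693). The CRMP family member *Dpysl5* gave -0.18 (-0.40 to 0.04) and *Basp1*, a membrane protein of growth cones, -0.09 (-0.25 to 0.06). The 11 motors of axonal transport had a median of -0.04, with -0.09 for *Kif21a*, -0.10 for *Kif3a* and -0.08 for the light chain *Klc1*.

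The 12 adhesion and guidance receptors had a median of -0.02, 10 of them below 0. *Dcc*, the netrin receptor, was 2846, 3298, 3812 and 3643 in mutants 1 to 4 and 4137, 3866, 3416 and 4062 in controls 1 to 4, a log2 fold change of -0.19 (-0.44 to 0.06). The semaphorin receptor *Nrp1* gave 0.23 (-0.08 to 0.54) and the Slit receptor *Robo1* -0.14 (-0.42 to 0.15). Among the 10 pan-neuronal genes the median was -0.02. *Nhlh2*, a transcription factor of young neurons, gave -0.17 (-0.38 to 0.04), while *Rbfox3*, the gene of NeuN, gave 0.17 (-0.10 to 0.44) and the granin *Scg3* 0.13 (-0.08 to 0.34). None of these was called.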

How the data were processed

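Total RNA of E12.5 brain was hybridised to 8 Affymetrix arrays, 4 per genotype. The study's methods describe AffyPLM with RMA, log2 values and t-tests adjusted by Benjamini-Hochberg, and RMA also stands in the labels with no version. What the authors deposited are linear intensities per probe set, with array medians from 40.9 to 68, which RMA output does not have, and the step that made them is not stated. They were quantile-normalized, 16 was added, and log2 values were tested with limma 3.58.1 (lmFit, eBayes) in R 4.3.3, two-sided, over 45037 probe sets after 64 control probe sets were left out. The added constant shrinks the fold changes of dim probe sets. In the annotation 34945 probe sets have 1 gene, 932 have several and 9160 have none. A gene was represented by its brightest probe set. Symbols were updated through Entrez identifiers with RefSeq (GRCm38.p6). Single values were also tested by two-sided exact permutation, where 4 arrays against 4 cannot give a p below 0.0286. The number of arrays limits the precision. A limma p sets the genotype difference against the spread between these arrays, with information on spread shared across probe sets. A permutation p ranks that difference among regroupings of the same arrays. The members and gene lists were chosen with earlier results of these data known. Named genes are all members and *Rest*, and otherwise were drawn from the up to 3 genes with the smallest p of each list, and of each marker list the 2 brightest. *Eif2s3y* was named in addition, as a check of sex. Of 135 listed genes, 8 have no named probe set and were not used here. The test was checked on simulated data. Alternatives were other scalings, constants, tests, probe set rules, a sex covariate, subsets and leaving out each array. Figures were drawn with matplotlib 3.10.9.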

Additional observations from a re-analysis of the deposited data

Results flagged for a closer look

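Among 84 groups of 4 arrays (24 probe sets and 18 means over gene lists, in each genotype), 10 held 1 array whose gap to the next was over Dixon's 95% limit, where chance gives about 1 in 20. Of the 10, 5 were low values of *Cre+, Rest GTi/GTi* replicate 1: *Nefl* at 2752 (brightest probe set), *Nefm* at 1665, *Ina* at 3656 (a dimmer probe set), and the log2 differences from the control mean of -0.3698 for the mean of *Nefl* and *Nefm* and -0.3501 for the mean of *Nefl*, *Nefm* and *Ina*. A further 4 were high values of control replicate 1: *Nefl* at 2993 (second probe set), *Nefm* at 2544, the mean of *Nefl* and *Nefm* at 0.3118 and the mean of the 3 genes at 0.2741. The last was the second *Map2* probe set, at 616.0 in *Cre+, Rest GTi/GTi* replicate 3, above the other 3 arrays of its genotype. The means share genes with the single probe sets, so the 10 are not independent.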

How the results depend on the processing

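Under 23 alternatives 0 of the 10 members was called. Under the 22 that apply to probe sets, 0 of the 24 was called, or 0 of those kept where dim or less specific ones were left out. *Nefl* (0.14 to 0.48), *Nefm* (0.21 to 0.54) and *Map2* (-0.18 to -0.02) kept their sign under all. Signs of the small differences turned in some. With a common median they were -0.0456 for *Stmn2*, -0.069 for *Stmn3*, -0.0498 for *Mapt* and -0.0578 for *Ina*. Without scaling *Gap43* was 0.0269. The mean of probe sets gave -0.0334 for *Stmn3* and 0.0018 for *Dcx*, and leaving out the less specific probe set gave -0.0764 for *Stmn3*. Adjusting for *Eif2s3y* gave -0.0445 for *Stmn3*, -0.0234 for *Mapt* and -0.0643 for *Ina*, and the 2 male controls as the only controls gave -0.0433, -0.0254 and -0.0596 for these genes. Keeping only mutant replicates 3 and 4 gave 0.0353 for *Tubb3*, 0.0566 for *Dcx* and 0.132 for *Gap43*. Leaving out 1 array gave -0.0416 to 0.122 for *Stmn2*, -0.0532 to 0.065 for *Stmn3*, -0.0535 to 0.142 for *Mapt*, -0.156 to 5e-04 for *Dcx*, -0.0394 to 0.132 for *Ina* and -0.0907 to 0.104 for *Gap43*. The median of the members ranged from -0.0634 to 0.146. List medians moved with a common median to -0.064 for other tubulins, -0.0527 for other intermediate filaments and -0.105 for growth cone genes, and for other tubulins to 0.0535 without scaling and to between -0.0122 and 0.0526 with 1 array left out. With 1 array left out the median also ran from -0.133 to 0.0845 for adhesion and guidance receptors and from -0.0715 to 0.0484 for pan-neuronal genes, and mutant replicates 3 and 4 only gave 0.136 and 0.0768. Over all alternatives the medians ran from -0.0874 to 0.0294 for other microtubule regulators and from -0.092 to 0.0249 for transport motors. The median of all genes was -0.04 with a common median and 0.05 without scaling. Mutant replicate 3 was the highest array for 2 members with a common median and for 10 without scaling. Replicate 1 was the lowest for 0 members without scaling. Of the 1052 genes at least as bright as the dimmest member, 49.2% were highest on replicate 3 and 0 lowest on replicate 1 without scaling. Over all genes 41 were called, against 2 without scaling, 26 with a constant of 1, 14 by a t-test with equal variances, 0 by one with unequal variances, 14 with the *Eif2s3y* term, 5 with the 2 male controls, 0 with mutant replicates 3 and 4 only and 21 to 31 with 1 array left out. Arrays of equal number were not shown to be pairs (0 of 4 such pairs of residuals correlated above 0.1), and with replicate number as a block 0 genes were called over all genes, against 41. The causes were not tested. Brightness over background limits the dim *Dcx*, *Map2*, *Prph* and *Nefh* probe sets.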
